A study of Mus musculus with 7 samples.

Results

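Solute carriers are the largest group of membrane transport proteins in mammals, and their promoters were followed here through the postnatal maturation of the mouse retina. The measurement was lactylation of histone H3 at lysine 18 (H3K18La), read by CUT&Tag. A gene was taken as a member when its symbol was Slc followed by a digit and it had a protein-coding promoter peak, with the peak nearest the transcription start site (TSS) used for each gene. A promoter was the stretch from -1000 to 500 bases around the TSS. The rule left out 10 transporter genes by name, 8 of which had a promoter peak. The 10 were Slc2a1, Slc16a1, Slc16a3, Slc16a7, Slc24a1, Slc1a3, Slc6a9, Slc17a6, Slc17a7 and Slc32a1. Counts of their families and role groups therefore do not cover these genes. Peaks had been called in these same libraries and merged over the ages, so a promoter marked only at a later age could enter. Beyond the need for a peak, the rule used no measured value. It gave 180 members of the 9956 protein-coding genes that had a promoter peak, among 108253 peaks in all. They came from 45 families, and 13 of them had more than 1 promoter peak, 194 in all. Slc9a3r1 carries the symbol but encodes a scaffold protein and not a transporter. Role groups below were set by family number alone, so a group can hold members with another cargo or none established.

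Retinas of C57Bl/6J mice were taken at postnatal day 4 (P4, 2 libraries), day 10 (P10, 2 libraries) and day 28 (P28, 3 libraries). No group carried a transgene or a treatment. Whole retinas were dissociated with papain, so every value is a mixture of all retinal cell types, and fewer marked cells of a type cannot be told apart from less mark per cell. Batch 2 held a single library, P28 replicate 1, so within that batch no comparison of ages could be made.

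Solute carriers move ions, sugars, amino acids, nucleotides, metals and vitamins across the plasma membrane or the membranes of organelles. Most work as secondary transporters, which use the gradients built by ion pumps, and most of those of family 25 sit in the inner mitochondrial membrane. In the retina they clear glutamate from synapses, set neuronal chloride, supply photoreceptors with fuel and hand metabolites between neurons, Mueller glia and the pigment epithelium. Lactylation at this lysine is a mark found at active promoters, and lactate itself is carried by members of family 16.

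Of the 180 member peaks, 170 covered the TSS itself and none lay further than 877 bases from it. They were 311 to 3667 bases wide with a median of 1276.5, against 1162 for all protein-coding genes. Coding sequence of their own gene was overlapped by 111. The start of another protein-coding gene fell in 9 of them, so the mark there cannot be assigned to 1 gene. Among these were Slc11a2, Slc15a4, Slc25a11, Slc25a32, Slc31a1, Slc39a6, Slc4a2 and Slc5a6.

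The promoters below belong to the 6 members with a sequence among those with the largest changes, and are shown so that the marked DNA can be seen beside its signal. They are RefSeq sequences on GRCm38.p6, the assembly of the deposited coordinates, from 250 bases before to 50 bases after the annotated start, written 5′ to 3′ on the gene's strand. Capitals mark the GC box GGGCGG or its reverse complement, the site bound by SP and KLF factors. Slc12a5 lies at chr2:164967738-164968037 (plus strand), Slc4a7 at chr14:14718534-14718833 (plus), Slc25a33 at chr4:149774218-149774517 (minus), Slc1a7 at chr4:107968156-107968455 (plus), Slc4a8 at chr15:100761497-100761796 (plus) and Slc24a2 at chr4:87230491-87230790 (minus).
Slc12a5: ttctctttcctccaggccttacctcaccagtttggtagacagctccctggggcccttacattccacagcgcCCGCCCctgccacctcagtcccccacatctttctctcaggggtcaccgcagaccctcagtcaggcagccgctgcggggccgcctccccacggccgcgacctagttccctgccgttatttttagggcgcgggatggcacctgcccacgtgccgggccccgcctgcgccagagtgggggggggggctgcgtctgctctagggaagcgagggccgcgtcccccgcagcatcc
Slc4a7: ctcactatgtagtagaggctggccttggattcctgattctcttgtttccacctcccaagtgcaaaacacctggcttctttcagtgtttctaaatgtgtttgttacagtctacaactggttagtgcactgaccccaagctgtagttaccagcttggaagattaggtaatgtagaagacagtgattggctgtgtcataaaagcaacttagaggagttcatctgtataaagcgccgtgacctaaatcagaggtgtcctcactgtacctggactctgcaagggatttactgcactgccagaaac
Slc25a33: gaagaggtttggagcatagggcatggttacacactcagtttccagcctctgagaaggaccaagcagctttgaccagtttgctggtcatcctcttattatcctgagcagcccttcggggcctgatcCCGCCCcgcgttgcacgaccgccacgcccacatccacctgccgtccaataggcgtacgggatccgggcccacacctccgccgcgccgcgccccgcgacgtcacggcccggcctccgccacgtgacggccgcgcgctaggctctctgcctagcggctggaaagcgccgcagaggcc
Slc1a7: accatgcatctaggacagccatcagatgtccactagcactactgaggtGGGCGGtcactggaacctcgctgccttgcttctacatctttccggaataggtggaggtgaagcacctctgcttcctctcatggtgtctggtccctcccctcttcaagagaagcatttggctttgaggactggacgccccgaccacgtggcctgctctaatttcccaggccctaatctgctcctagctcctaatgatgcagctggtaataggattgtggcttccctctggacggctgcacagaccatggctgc
Slc4a8: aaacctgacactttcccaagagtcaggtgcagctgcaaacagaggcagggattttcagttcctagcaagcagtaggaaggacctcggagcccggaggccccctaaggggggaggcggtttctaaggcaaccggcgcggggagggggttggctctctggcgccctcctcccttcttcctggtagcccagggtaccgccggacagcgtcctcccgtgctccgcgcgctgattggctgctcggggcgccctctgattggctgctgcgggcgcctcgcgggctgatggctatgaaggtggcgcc
Slc24a2: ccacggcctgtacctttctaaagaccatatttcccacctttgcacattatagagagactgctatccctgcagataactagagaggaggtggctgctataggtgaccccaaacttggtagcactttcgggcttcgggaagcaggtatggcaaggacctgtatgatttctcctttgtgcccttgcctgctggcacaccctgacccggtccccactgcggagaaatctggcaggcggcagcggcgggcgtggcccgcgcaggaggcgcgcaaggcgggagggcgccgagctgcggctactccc

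All 6 start sites lay inside the member's peak. The GC box stood once in Slc12a5, Slc25a33 and Slc1a7 and was not in the windows of Slc4a7, Slc4a8 and Slc24a2. GC content was 68.3% in Slc12a5 and 66% in Slc25a33, against 45% in Slc4a7, whose change was nearly as large as that of Slc12a5. A promoter sequence was found for 139 members, with a median GC content of 62.3%, against 61.3% for the 7984 protein-coding genes that had both a peak and a sequence and 52.7% over 27025 promoters. Searched on both strands, GGGCGG was in 69.8% of the members, 63.8% of the genes with a peak and 35.6% of all promoters. The KLF motif CACCC was in 70.5%, 63.8% and 56.8%, and the ETS motif CCGGAAG in 13.7%, 15.2% and 9.08%. The CRX motif TAATCC was in 4.32%, 6.16% and 7.23%, the CRE motif TGACGTCA in 0.719%, 2.99% and 1.78%, and the NRF1 motif in 1.44%, 1.99% and 0.962%. No motif of this search contains another, and a match only describes the letters of the window.

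Signal is given as RPKM, the reads of a peak scaled by its length and by a normalised library size. The depth differed widely, from 199970 reads in peaks in P10 replicate 1 to 8274373 in P28 replicate 2. Reads in peaks made up 16.3 and 17.6% of the normalised library size at P4, 36.1 and 52.1% at P10, and 42.4 to 57.1% at P28. The members together held 979 and 795 reads at P4, 625 and 1647 at P10, and 5985 to 27175 at P28. A member is called at the floor at an age when none of its libraries had more than 3 reads, and 66 members were at the floor at P4, 68 at P10 and 1 at P28. A fold against such an age was taken against 3 reads per library. All 5 photoreceptor markers examined (Crx, Nrl, Gnat1, Pde6b and Reep6) had a promoter peak, and their summed RPKM was 8.998 to 12.8 at P4, 68.0 to 69.0 at P10 and 71.8 to 108.1 at P28. Both listed ganglion cell markers, Rbpms and Pou4f1, summed to 5.88 to 7.82 at P4 and to a lower 1.47 to 4.10 at P28. Of 3 Mueller glia markers 2 had a peak, with sums of 4.12 to 4.40 at P4 and 13.1 to 17.4 at P28, of which Glul made 1.97 and 3.46 at P4 and 10.5 to 14.7 at P28, and Rlbp1 2.14 and 0.94 at P4 and 1.65 to 2.72 at P28. Peaks were found for 3 of 7 pigment epithelium markers (Rpe65, Tyr, Pmel and Lrat had none), whose sum was 5.06 to 6.29 at P4 and 3.60 to 9.29 at P28, for 3 of 5 of endothelium and mural cells (6.86 to 9.77 and 3.70 to 5.91) and for 1 of 5 of microglia (1.63 to 1.71 and 1.49 to 4.71). Depth, the share of reads in peaks and the photoreceptor markers moved with age, and their part in the results was not tested.

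The level of the members as a group was higher at each later age, as was that of all marked promoters, except that the median change of the members from P4 to P10 turned negative when libraries were scaled to their reads in peaks (-0.25). The median member had 1.42 and 1.56 RPKM at P4, 2.58 and 3.31 at P10, and 4.57, 4.56 and 5.14 at P28. Every P10 library was above both P4 libraries, and every P28 library above both P10 libraries. Over all 9956 protein-coding promoters the medians were 1.53 and 1.63, then 2.41 and 3.22, then 4.50, 4.84 and 5.53 RPKM, so the members followed the other genes closely in every library. Between a pair of ages with 2 or 3 libraries each, no exact permutation test of such a median can pass 0.05, and these medians are given as a description. Members without any read numbered 12 and 16 at P4, 48 and 14 at P10, and at most 1 at P28.

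**Figure D1:**
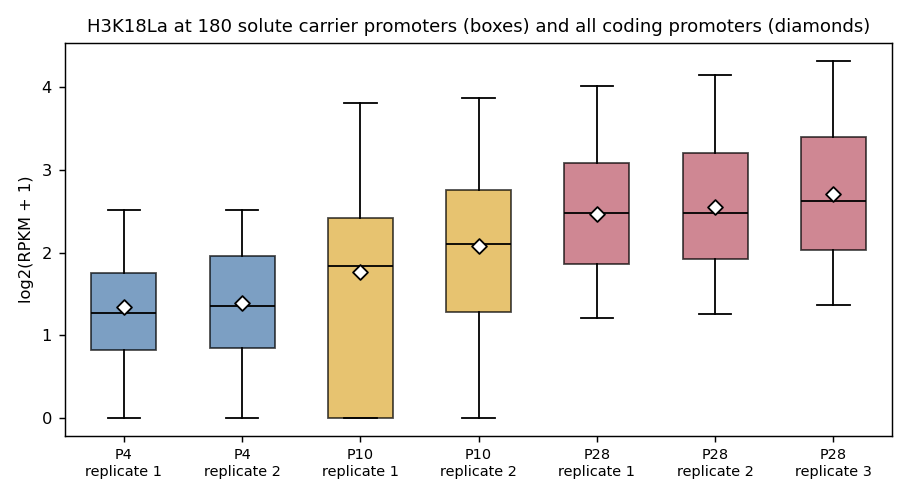
H3K18La at the 180 solute carrier promoters in each of the 7 libraries, as log2(RPKM + 1). Boxes span the middle quartiles with the median as a line, whiskers reach the 5th and 95th percentiles, and diamonds give the median of all protein-coding promoters, which lies close to the member median in every library.

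From P4 to P28, 60 of the 180 members were called higher and 1 lower, at a Benjamini-Hochberg adjusted p under 0.01 in a limma fit over all 108253 peaks. That is 33.3% of the members. By the same rule 32.9% of all protein-coding promoters were called higher and 0.281% lower, and 18.9% and 4.21% of all peaks, so the share among solute carriers lay close to that of marked promoters in general. The median change was 1.32 on the log2(RPKM + 1) scale, against 1.34 for all protein-coding promoters and 0.68 for all peaks. In 146 members all 3 P28 libraries lay above both P4 libraries, or 81.1%, where 79.5% of protein-coding promoters did, and in 9 all lay below, against 4.6% of protein-coding promoters. An unadjusted p under 0.05 was reached by 124, or 68.9%, beside 66.4% of protein-coding promoters. Of the 60 called higher, 20 were at the floor at P4. Of the 87 members above the floor at every age, 38 (43.7%) were called higher and none lower, with a median change of 1.35. The share of all protein-coding promoters called under that same filter was not counted, so this count has no background to be read against. The direction at the scale of the whole list held under each scaling tried, but not the counts: when libraries were scaled to their reads in peaks, 15 were called higher and 7 lower and the median was 0.30, while the median over all peaks went from 0.68 to -0.29. Under quantile normalization 33 were called higher and 8 lower, with the median over all peaks at 0.09, and under median centring 37 and 3, with that median at 0.16. Of all peaks, 91109 lay outside promoters. No share or median of all protein-coding promoters was taken under these scalings, so the counts have no background among promoters. The number called higher was 19 without P4 replicate 1, 23 without P4 replicate 2, 97 without P10 replicate 1, 99 without P10 replicate 2, 30 without P28 replicate 1, that is within batch 1, 24 without P28 replicate 2 and 26 without P28 replicate 3. The call was kept without each single library in 17 of the 60, and in 11 of these under the 3 other scalings too. Those 11 were Slc12a5, Slc19a1, Slc1a7, Slc20a1, Slc25a33, Slc25a4, Slc25a5, Slc35e4, Slc4a7, Slc66a2 and Slc9a5.

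**Figure D2:**
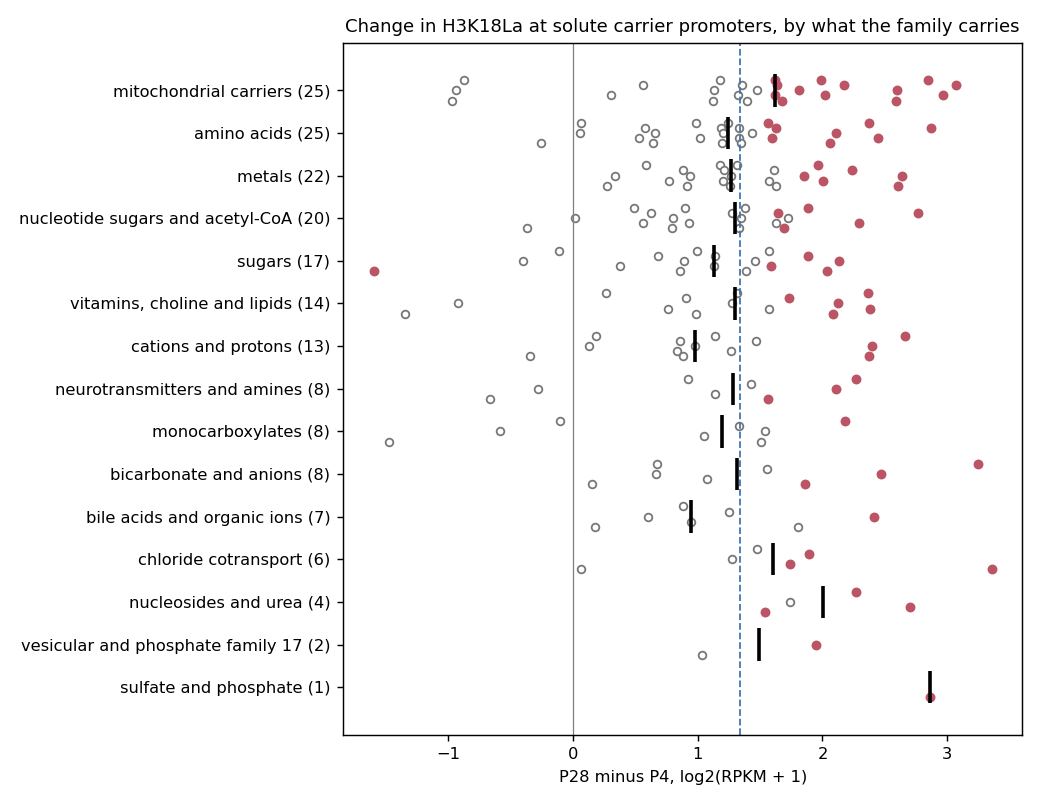
Change from P4 to P28 on the log2(RPKM + 1) scale for each of the 180 members (points), by the cargo of its family with the number of members in parentheses. Filled points passed an adjusted p of 0.01, black bars are the median of each group, and the dashed line is the median of all protein-coding promoters at 1.34, around which most group medians lie.

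The largest rise was at the promoter of Slc12a5 (ENSMUSG00000017740, peak chr2:164967176-164969009), the potassium chloride cotransporter that lowers chloride in mature neurons. Its signal was 0.74 and 0.98 RPKM at P4, 6.89 and 9.46 at P10, and 15.2, 19.9 and 19.3 at P28. The ages did not overlap, and each was above the one before. The change from P4 to P28 was 3.36 ± 0.30 (SE) with a limma adjusted p of 0.000131, and both P4 values rest on 3 reads. Of the 6 chloride cotransporters with a peak, 3 were called higher from P4 to P28, or 50% beside the 32.9% of all protein-coding promoters, with a median change of 1.61. Slc12a2, the cotransporter that loads cells with chloride, was another of the 3. It had 2.76 and 2.66 RPKM at P4, 5.11 and 9.89 at P10, and 10.8, 10.8 and 12.5 at P28. Its change was 1.74 ± 0.33 (limma adjusted p = 0.00274), so both the loader and the exporter of chloride gained signal. The call for Slc12a2 was lost without either P4 library or any P28 library, with an adjusted p of up to 0.0278, and it was also lost when libraries were scaled to reads in peaks (change 0.45, 0.173) and under quantile normalization (0.71, 0.0681).

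Among bicarbonate and anion transporters, 3 of 8 were called higher, or 37.5%, close to the 32.9% of all protein-coding promoters, with a median change of 1.32. Slc4a7 (ENSMUSG00000021733, peak chr14:14718314-14719050), a sodium bicarbonate cotransporter whose loss in mice leads to photoreceptor degeneration, had 2.47 and 3.24 RPKM at P4, 41.6 and 24.6 at P10, and 28.8, 34.3 and 44.5 at P28. Signal was low in both P4 libraries and high in all later ones, and P10 and P28 overlapped. The change from P4 was 3.11 ± 0.34 at P10 (limma adjusted p = 0.000555) and 3.24 ± 0.31 at P28 (0.00015), or 12.6-fold on the means at P28. The P4 values rest on 4 reads in each library. Without P4 replicate 1 the adjusted p of the P10 change was 0.0102. Slc4a8, a sodium-driven exchanger of chloride for bicarbonate, went from 2.15 and 0.94 RPKM at P4 to 14.3 and 9.96 at P10 and to 10.8, 13.1 and 14.6 at P28. Its P10 and P28 libraries overlapped and all stood above P4, with changes of 2.39 ± 0.37 (limma adjusted p = 0.00168) and 2.47 ± 0.33 (0.000541). Without P4 replicate 2 the adjusted p at P10 was 0.0148, and under scaling to reads in peaks it was 0.0272 at P10 and 0.0222 at P28. Quantile normalization also ended the P10 call (1.77, 0.0188). Slc4a2, an anion exchanger whose peak also holds the start of Cdk5, stood just inside the threshold (change 1.86, limma adjusted p = 0.00949) and lost its call without any 1 of the P4 or P28 libraries, with an adjusted p of up to 0.0556, and under the 3 other scalings (up to 0.142). In its other promoter peak at the same distance the change of Slc4a2 was 0.05 (0.937), and the mean over its promoter peaks gave 1.01 (0.0599). For Slc4a3, another anion exchanger, the change was 1.07 (0.0354), and for Slc4a10 it was 0.67 (0.213). Both changes were negative under scaling to reads in peaks, and that of Slc4a10 also under quantile normalization.

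Glutamate transporters were among the members with the highest levels at P28, with Slc4a7 between Slc1a2, the highest by mean RPKM, and Slc1a7. Slc1a2 (peak chr2:102657335-102659878), the main transporter that clears glutamate in the brain, had 9.29 and 6.57 RPKM at P4, 41.9 and 31.3 at P10, and 34.5, 36.7 and 39.8 at P28. It was already among the 5 highest members at P4, with 80 reads there. The change from P4 to P28 was 2.10 ± 0.26 (limma adjusted p = 0.000356) and that from P4 to P10 was 2.08 ± 0.28 (0.00113). The P10 call had an adjusted p of 0.0129 without P4 replicate 2, and neither change passed under quantile normalization (0.08 at P10 and 0.31 at P28) or scaling to reads in peaks (0.82 and 0.66), with p-values of 0.0692 to 0.857. Slc1a7 (peak chr4:107967920-107969530), a glutamate transporter of photoreceptors and bipolar cells with a large chloride conductance, had 2.82 and 5.19 RPKM at P4, 35.9 and 29.8 at P10, and 30.3, 32.96 and 41.2 at P28. Both genes stood higher in every later library than at P4, and their P10 and P28 libraries overlapped. For Slc1a7 the changes were 2.79 ± 0.32 at P10 (limma adjusted p = 0.000617, and 0.0179 under quantile normalization) and 2.87 ± 0.29 at P28 (0.000174).

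Of the 25 amino acid transporters, 8 (32%) were called higher and none lower from P4 to P28, beside 32.9% of all protein-coding promoters called higher, and the median change was 1.24. Slc3a2, the heavy chain that brings several amino acid exchangers to the membrane, had 0.94 and 1.24 RPKM at P4, 3.75 and 4.36 at P10, and 6.35, 9.32 and 7.65 at P28, a change of 2.06 ± 0.34 (limma adjusted p = 0.00142). Its partner Slc7a5, which takes up large neutral amino acids, did not pass, with a change of 1.33 and an adjusted p of 0.0509. Slc7a5 was called higher, though, under library weights and without either P10 library. Slc38a1, a glutamine transporter, rose by 1.57 (limma adjusted p = 0.00269). The call for Slc3a2 was lost without either P4 library or P28 replicate 2 (up to 0.0147), under scaling to reads in peaks (change 0.99, 0.0290) and in the other of its promoter peaks at the same distance (1.36, 0.0404). That for Slc38a1 was lost without either P4 library, P28 replicate 2 or P28 replicate 3 (up to 0.0191) and under all 3 other scalings (up to 0.355). Slc38a3, which exports glutamine from glia, had a change of 0.66 that did not pass (0.373), and its P10 libraries stood at 1.56 and 11.6 RPKM, the first from 1 read. That value depends on the peak, since Slc38a3 has another promoter peak at the same distance, which was called higher with a change of 2.32 (limma adjusted p = 0.00119), and the mean over its promoter peaks gave 1.68 (0.00441). The neutral amino acid exchangers Slc1a4 and Slc1a5 had changes of 1.02 (0.0438) and 1.24 (0.0379). For Slc7a14, an orphan transporter in which mutations cause retinal degeneration, the change was 1.44 (0.0237), with 3 and 1 reads at P4. In the peak used, Slc38a3, like Slc1a4, had a negative change under scaling to reads in peaks and under quantile normalization.

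Family 25, the mitochondrial carriers, was the role with the most calls. It was counted whole, with Slc25a17, which sits in the peroxisomal membrane. Of 25 members, 13 (52%) were called higher and none lower, beside the 32.9% of all protein-coding promoters, and their median change was 1.62. The count is a description of a small group, and no test was made of its difference from other genes. Both ADP/ATP carriers of somatic tissue rose. Slc25a4, the form of heart, muscle and nerve, had 1.99 and 1.49 RPKM at P4, 10.2 and 11.3 at P10, and 17.7, 19.05 and 18.998 at P28. Slc25a5, the form of proliferating and many other cells, had 0.56 and 1.10, then 9.99 and 6.78, then 9.998, 9.10 and 10.8 RPKM. The levels of Slc25a4 separated all 3 ages, while those of Slc25a5 overlapped between P10 and P28. Changes from P4 to P28 were 2.84 ± 0.27 for Slc25a4 (limma adjusted p = 0.000148) and 2.60 ± 0.33 for Slc25a5 (0.000399). Slc25a33, which imports pyrimidine nucleotides for mitochondrial DNA and RNA, had 1.46 and 2.88 RPKM at P4, 13.1 and 11.4 at P10, and 18.3, 24.1 and 28.02 at P28. The 3 ages did not overlap, and the change was 2.97 ± 0.31 (limma adjusted p = 0.000203). Slc25a35, a carrier without an established cargo, had no read in either P4 library, 2.52 and 0.55 RPKM at P10 from 2 and 1 reads, and 6.77, 7.97 and 7.47 RPKM at P28. Its P28 mean was at least 6.73-fold higher than P4, and the change was 3.07 ± 0.46 (limma adjusted p = 0.000879). The call was lost without P4 replicate 1 (0.0148) and without P4 replicate 2. The germ cell ADP/ATP carrier Slc25a31 went the other way, from 2.76 and 1.81 RPKM at P4 to 0 at P10 and to 0.40, 0.84 and 0.79 at P28. Its change from P4 to P28 was -0.97 and did not pass (0.0324), though it was called lower under each of the 3 other scalings (-1.49 to -1.95), and the P10 call is described with the others of that age.

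The aspartate/glutamate carriers of the malate-aspartate shuttle, which moves reducing power from the cytosol into mitochondria, differed from each other. Slc25a12, the form of neurons and muscle, had 0.33 and 0.43 RPKM at P4, 1.31 and 3.99 at P10, and 6.64, 5.82 and 9.99 at P28. Slc25a13, the form best known from liver, had 6.82 and 4.18 RPKM at P4, 10.8 and 6.31 at P10, and 1.84, 2.28 and 2.94 at P28. All P28 libraries were above P4 for Slc25a12 and below P4 for Slc25a13. The change was 2.59 ± 0.45 for Slc25a12 (limma adjusted p = 0.00177) and -0.94 ± 0.38 for Slc25a13 (0.0687), which did not pass. Slc25a13 was called lower under scaling to reads in peaks (-2.20, 0.00357) and quantile normalization (-2.39, 0.00244). The call for Slc25a12 rests on 1 read in each P4 library, and it was lost without either P4 library, P28 replicate 1 or P28 replicate 3, with an adjusted p of up to 0.0250. Slc25a11, the oxoglutarate carrier of the same shuttle, rose by 1.81 ± 0.41 (limma adjusted p = 0.00669), a call lost without any 1 of the P4 or P28 libraries (up to 0.0431), under scaling to reads in peaks (change 1.04, 0.0578) and under median centring (1.29, 0.0217), and its peak also holds the start of Rnf167. The phosphate carrier Slc25a3 had a change of 1.35 that did not pass (0.0127). It was called higher under voom, under library weights and without either P10 library, while scaling to reads in peaks left a change of 0.06 (0.893).

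**Figure D3:**
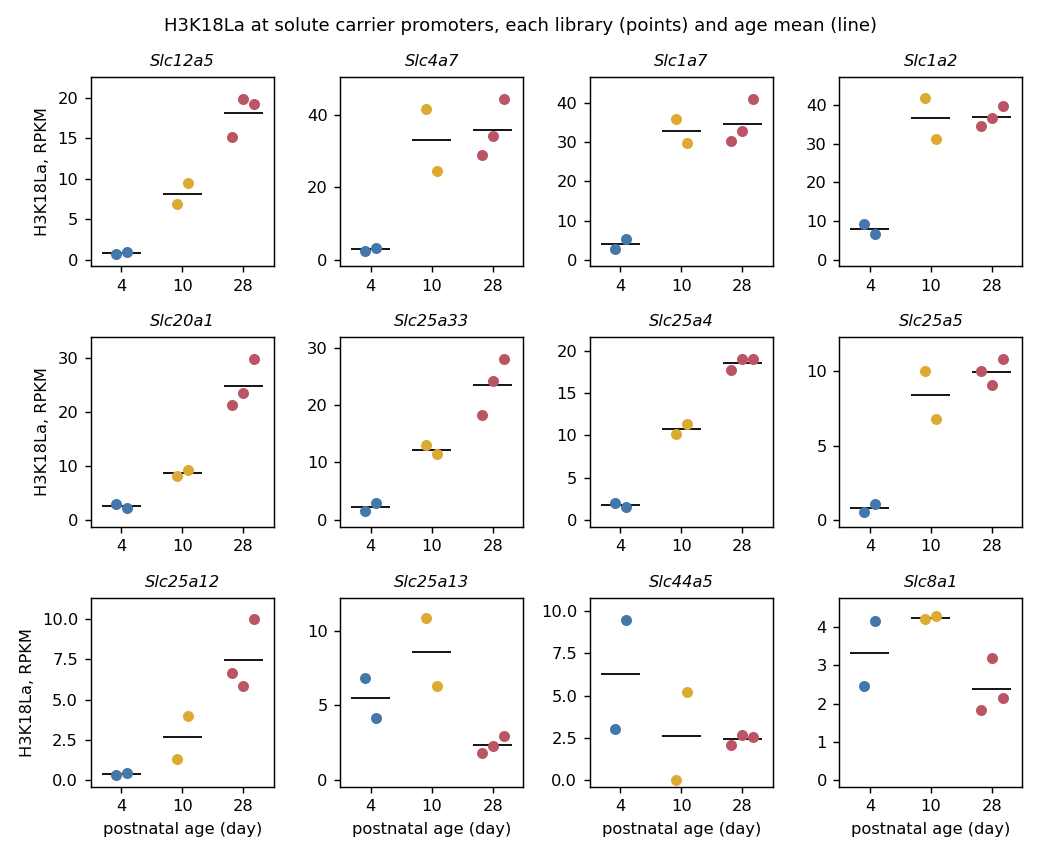
H3K18La signal in RPKM (y axis, own scale for each gene, from 0) against postnatal age for 12 members, with a point for each library and a line for the mean of an age. The top rows hold members that rose after P4, such as Slc12a5 from 0.74 and 0.98 RPKM to 15.2 to 19.9, and Slc25a13, Slc44a5 and Slc8a1 in the bottom row did not pass the test.

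In the group set by family number as sugar transporters, 4 of 17 (23.5%) were called higher and 1 lower. At P4, 10 of the 17 (58.8%) were at the floor. Among all protein-coding promoters 32.9% were called higher and 39.2% were at the floor at P4. Slc5a2, the sodium glucose cotransporter known from the kidney, had 2.23 and 2.77 RPKM at P4, 21.7 and 28.2 at P10, and 10.5, 12.6 and 12.5 at P28, over the widest member peak (chr7:128268286-128271952). P10 stood above both other ages, and P28 above P4. The change from P4 was 2.88 ± 0.30 at P10 (limma adjusted p = 0.0005) and 1.88 ± 0.28 at P28 (0.000788). At P28 the adjusted p was 0.0113 without P4 replicate 1, 0.0426 under scaling to reads in peaks (change 0.61) and 0.0147 under quantile normalization (0.90). The other members of this group called higher were Slc37a2, which carries sugar phosphates (2.14, limma adjusted p = 0.0086), the insulin-regulated glucose transporter Slc2a4 (2.04, 0.00614) and Slc45a4 (1.59, 0.00819). Slc37a2 and Slc45a4 lost their calls without any 1 of the P4 or P28 libraries (up to 0.0719 and 0.0583), and Slc2a4 lost it without any of these but P28 replicate 1 (up to 0.0482). All 3 lost it under scaling to reads in peaks, with changes of 1.35 for Slc37a2 (0.105), 0.38 for Slc45a4 (0.481) and 1.26 for Slc2a4 (0.0461), and under median centring, and Slc37a2 and Slc45a4 under quantile normalization too. Slc2a3, the neuronal glucose transporter, had 0 and 0.44 RPKM at P4 and 2.32, 2.27 and 3.19 at P28, a change of 1.57 that did not pass (0.0139) and was 0.55 in its other promoter peak at the same distance. Slc5a9, a further family 5 transporter, was the only member called lower from P4 to P28. It had 1.98 and 2.59 RPKM at P4, from 2 reads in each library, none at P10, and 0, 0.27 and 0 at P28. It was at the floor at all 3 ages, so no fold is given and its change of -1.60 ± 0.23 (limma adjusted p = 0.000681) rests on 6 reads in all.

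Transporters of neurotransmitters and amines gave 3 calls of 8 (37.5%), all higher, beside 32.9% of all protein-coding promoters. Slc6a6, which takes up taurine, an abundant amino acid of photoreceptors, had 1.60 and 6.67 RPKM at P4, 29.8 and 38.05 at P10, and 17.4, 22.5 and 21.96 at P28. The P10 libraries were the highest, and all libraries after P4 stood above it. The change from P4 was 2.95 ± 0.45 at P10 (limma adjusted p = 0.00166) and 2.27 ± 0.41 at P28 (0.00223). The P28 call was lost without P4 replicate 1 or any 1 of the P28 libraries (up to 0.0186), and neither change passed under quantile normalization (0.0761 and 0.148) or scaling to reads in peaks (0.0141 and 0.0928). The other calls were Slc18b1, a polyamine transporter (2.11, 0.0019), and Slc6a8, which takes up creatine (1.57, 0.00699), both lost without any 1 of the P4 or P28 libraries (up to 0.0178 and 0.0425). Scaling to reads in peaks also ended the calls for Slc18b1 (change 1.06, 0.0388) and Slc6a8 (0.48, 0.321), and the other two scalings that for Slc6a8 (0.0408 and 0.0332). Slc6a11, a glial GABA transporter, did not pass, with a change of 0.92 (0.107) that was negative under scaling to reads in peaks.

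The rule left out Slc16a1, Slc16a3 and Slc16a7, so family 16, which carries monocarboxylates and related molecules, was not counted whole. Of its 8 members used here, only Slc16a6 was called higher (12.5%, beside 32.9% of all protein-coding promoters). Slc16a6 had a change of 2.18 ± 0.35 (limma adjusted p = 0.00124). It had 2.45 and 1.07 RPKM at P4, 6.49 and 5.66 at P10, and 8.48, 12.9 and 12.5 at P28, with no overlap between ages. The call was lost without P4 replicate 2 (0.0166) and without P28 replicate 2, under scaling to reads in peaks (0.0532) and under quantile normalization (1.44, 0.0178). Slc16a8, the lactate transporter of the pigment epithelium, had 0 and 0.94 RPKM at P4, 0 and 4.99 at P10, and 1.25, 3.79 and 5.19 at P28, a change of 1.54 (0.127). In 2 members of the family (25%, beside 4.6% of protein-coding promoters) every P28 library lay below both P4 libraries, and both were named after their values were seen. Slc16a12, which carries creatine, had 5.48 and 2.88 RPKM at P4, 2.18 and 0 at P10, and 0.63, 0.96 and 0.83 at P28, a change of -1.47 that did not pass (limma adjusted p = 0.0544). Slc16a14, an orphan, had 3.37 and 2.53, then 1.92 and 1.67, then 1.53, 1.43 and 1.92 RPKM (-0.58, 0.263). Both were called lower under scaling to reads in peaks (-2.57 and -1.72) and quantile normalization (-2.69 and -1.60), and Slc16a12 also without either P10 library.

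Sodium and calcium exchangers and proton exchangers gave 3 calls of 13 (23.1%) and a median change of 0.98, beside 32.9% and 1.34 for all protein-coding promoters. Slc9a5, a neuronal sodium proton exchanger, had the largest change of this role, 2.66 ± 0.36 (limma adjusted p = 0.000525). Slc8a3, a sodium calcium exchanger, changed by 2.37 (0.000691, and 0.0148 under scaling to reads in peaks), and the third call was the scaffold gene Slc9a3r1 (2.40, 0.00255), a call lost without P4 replicate 1 or any 1 of the P28 libraries (up to 0.0225) and under scaling to reads in peaks (0.0351). Slc8a1, a sodium calcium exchanger, had 2.47 and 4.17 RPKM at P4, 4.21 and 4.29 at P10, and 1.83, 3.20 and 2.15 at P28, a change of -0.34 (0.491), and P4 and P28 overlapped, although it was called lower under scaling to reads in peaks (-1.53, 0.00941). The potassium-dependent exchangers Slc24a2 and Slc24a3 were near the same level at P4 and P28 and are described with P10.

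Phosphate and metals were carried by 23 members. Slc20a1, a sodium phosphate cotransporter, had 2.89 and 2.17 RPKM at P4, 8.19 and 9.30 at P10, and 21.2, 23.4 and 29.8 at P28, and the ages did not overlap. The change was 2.86 ± 0.28 (limma adjusted p = 0.000162). Of 22 metal transporters 6 (27.3%) were called higher, beside 32.9% of all protein-coding promoters, and in 22 every P28 library was above both P4 libraries, beside 79.5%. Slc30a1, which exports zinc, had 2.37 and 1.13 RPKM at P4, 7.69 and 14.9 at P10, and 12.4, 11.4 and 11.04 at P28 (change 2.24, limma adjusted p = 0.0012). Its call was lost without P4 replicate 1 and without P4 replicate 2 (0.0211), under scaling to reads in peaks (change 1.05, 0.0345) and under quantile normalization (0.0131). Slc39a13, a zinc importer, changed by 2.61 (0.00162) and Slc31a2, of the copper transporter family, by 2.64 (0.000664). The call for Slc39a13 was lost without any 1 of the P4 or P28 libraries (up to 0.0255), and that for Slc31a2 without P4 replicate 1 (0.0119), and both under scaling to reads in peaks (0.0254 and 0.0111). Slc39a10, a zinc importer, had the highest mean of all members at P4, with 8.75 and 7.18 RPKM, then 8.69 and 15.2 at P10 and 11.8, 16.7 and 21.0 at P28. Its change of 0.94 did not pass (0.0458) and was negative under scaling to reads in peaks and under quantile normalization. Under voom and under library weights Slc39a10 was called higher. Slc41a3, a magnesium transporter, stood just outside the threshold (1.32, 0.0116).

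Vitamin, choline and lipid transporters gave 5 calls of 14 (35.7%), beside 32.9% of all protein-coding promoters. Slc19a1, which takes up reduced folates, had 3.99 and 3.22 RPKM at P4, 10.97 and 15.4 at P10, and 19.8, 22.8 and 26.6 at P28, without overlap. The change was 2.38 ± 0.28 (limma adjusted p = 0.000306). Slc44a1, a choline transporter, had 2.52 and 2.94 RPKM at P4, 13.4 and 13.6 at P10, and 12.1, 14.7 and 18.2 at P28 (2.09 ± 0.28, 0.000563, and 0.0238 under scaling to reads in peaks and 0.0101 under quantile normalization). Slc23a2, which takes up ascorbate, rose by 2.13 (limma adjusted p = 0.0022, up to 0.0248 without 1 library), and Slc27a4, which takes up fatty acids, by 1.73 (0.00744, up to 0.0387). Slc23a2 lost its call without either P4 library, P28 replicate 2 or P28 replicate 3, and Slc27a4 without any 1 of the P4 or P28 libraries. Slc44a2, a choline transporter, made the fifth call (2.37, 0.00104), lost without either P4 library (up to 0.0189). Scaling to reads in peaks also ended the calls for Slc23a2 (change 1.08, 0.0558), Slc27a4 (0.88, 0.0954) and Slc44a2 (1.20, 0.0437), quantile normalization that for Slc23a2 (0.0118) and median centring that for Slc27a4 (0.0318). Slc44a5, a relative of the choline transporters, was uneven between libraries, with 3.02 and 9.51 RPKM at P4, 0 and 5.23 at P10, and 2.09, 2.69 and 2.52 at P28, and had a change of -0.92 (0.311).

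The group set by family number as nucleotide sugar and acetyl-CoA transporters gave 5 calls of 20 (25%, beside 32.9% of all protein-coding promoters). Among the 5 was the orphan Slc35e4, at 2.77 ± 0.35 (limma adjusted p = 0.000405). The others were Slc35e2 (2.29), Slc35g2 (1.88), Slc35g1 (1.70) and Slc35b1 (1.64), with p-values of 0.00333 to 0.00636, each of which lost its call without any 1 of the P4 or P28 libraries (up to 0.0899), except that Slc35g2 kept it without P4 replicate 1. All 4 also lost it under scaling to reads in peaks, with changes of 1.11, 0.76, 0.61 and 0.43 (0.0728 to 0.347), and under quantile normalization, and Slc35g1 and Slc35b1 under median centring too. Slc33a1, which brings acetyl-CoA into the endoplasmic reticulum, had a change of 0.49 (0.341), a sign that turned under all 3 other scalings. Slc35f5, an orphan, was among the highest at P4, with 7.36 and 7.94 RPKM, and had 12.1, 10.7 and 12.4 at P28. Its change of 0.56 (0.107) became -1.21 under quantile normalization, with an adjusted p of 0.0042. The nucleoside and urea transporter families gave 3 calls of 4 (75%). These were the urea transporter Slc14a1 (2.71, 0.000817, and 0.0151 without P4 replicate 1) and, of the nucleoside transporter family, Slc29a2 (2.27, 0.000724) and Slc29a4 (1.54, 0.00733). Organic ion transporters gave 1 of 7 (14.3%), again beside 32.9%, the carnitine transporter Slc22a5 (2.41, 0.00419). Of family 17, which includes phosphate and vesicular transporters, Slc17a4 changed by 1.95 (0.00842). Slc29a4, Slc22a5 and Slc17a4 lost their calls without any 1 of the P4 or P28 libraries (up to 0.0403, 0.0644 and 0.0703). Under scaling to reads in peaks the calls for these 3 (changes 0.42, 1.26 and 1.26, p up to 0.347) and for Slc29a2 (1.05, 0.0252) were lost, under quantile normalization those for Slc29a2, Slc29a4 and Slc22a5, and under median centring those for Slc29a4, Slc22a5 and Slc17a4. Called members given in this and the foregoing role groups by their change and p alone were named after their values were seen, because few of their role were called.

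From P4 to P10, 23 members were called higher and 4 lower, with a median change of 0.55 against 0.54 for all protein-coding promoters. Of protein-coding promoters 11.3% were called higher and 0.884% lower, and of all peaks 11.4% and 7.34%, beside 12.8% and 2.22% of the members. In 85 members both P10 libraries lay above both P4 libraries, or 47.2%, where 45.6% of protein-coding promoters did. The largest changes were those of Slc4a7, Slc6a6, Slc5a2, Slc1a7 and Slc4a8, given above, and Slc38a1 stood just inside the threshold (1.40, limma adjusted p = 0.00877) with Slc39a13 just outside (1.89, 0.0139). Slc12a5 changed by 2.29 ± 0.33 (0.00139, and 0.0117 without P4 replicate 1), and Slc38a1 lost its call without any 1 library (0.0128 to 0.0283) and under the 3 other scalings (up to 0.391). Slc5a2 alone of the 23 kept its call without each single library and under the 3 other scalings. The counts called higher and lower were 4 and 11 under scaling to reads in peaks, where the median change was -0.25 and that of all peaks went from 0.23 to -0.51, and 4 and 4 under quantile normalization. All protein-coding promoters were again not summarised under these scalings, so the counts have no background among promoters. The number called higher was 6 without P4 replicate 1, 8 without P4 replicate 2, 14 without P28 replicate 1, 12 without P28 replicate 2 and 15 without P28 replicate 3, and the number called lower was 1, 1, 2, 1 and 1 in these, and 8 without P10 replicate 2.

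All 4 members called lower at P10 had no read in either P10 library, where 3 reads correspond to 4.24 and 1.85 RPKM at the median member width. Slc27a6, a fatty acid transporter, had 4.54 and 6.56 RPKM at P4, from 10 and 11 reads, and 0.79, 2.03 and 2.07 at P28. From P4 to P28 its change of -1.34 did not pass (0.0380), though it was called lower under each of the 3 other scalings (-1.87 to -2.85). The change from P4 to P10 was -2.69 ± 0.50 (limma adjusted p = 0.00355, up to 0.0249 without 1 library). A level of 3 reads per P10 library would be 0.70 of its P4 mean. Slc24a2, the potassium-dependent sodium calcium exchanger of cones and other neurons, had 2.98 and 2.93 RPKM at P4 and 3.23, 3.02 and 4.39 at P28, and its change at P10 was -1.98 ± 0.45 (0.00834, up to 0.0362). Slc25a31 changed by -1.70 ± 0.34 (0.00503) and lost its call without any 1 library (0.0104 to 0.0169), under quantile normalization (0.0147) and under voom. Slc5a9 changed by -1.71 ± 0.25 (limma adjusted p = 0.0014), a call lost under voom (0.366), and library weights ended all 4 calls. For Slc24a2 and Slc25a31 the level of 3 reads per P10 library would be 1.08 and 2.58 times the P4 mean, so the size of their fall cannot be bounded at this depth. Slc5a9 was at the floor at both ages. The calls for Slc27a6 and Slc24a2 were each lost without either P4 library, P28 replicate 2 or P28 replicate 3, and for Slc24a2 also without P28 replicate 1.

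**Figure D4:**
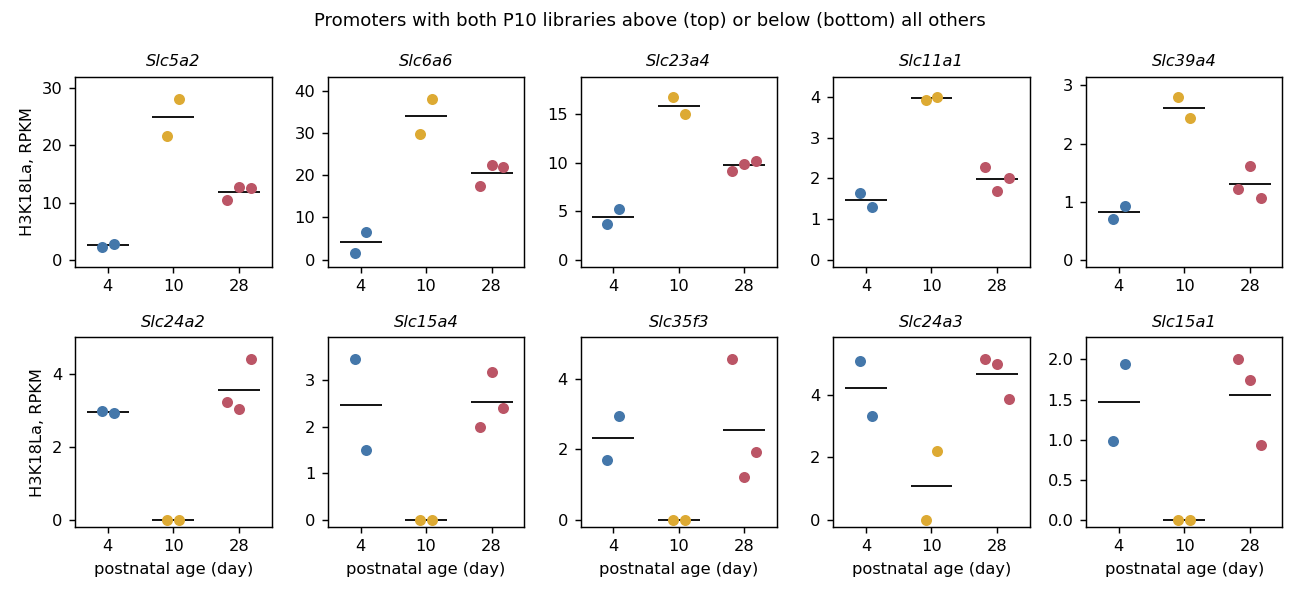
RPKM (y axis, own scale for each gene) against postnatal age for 10 members whose P10 libraries both lie above (top row) or below (bottom row) every other library, with a point for each library and a line for the mean of an age. Slc5a2 peaks at 21.7 and 28.2 RPKM at P10, while 4 of the 5 promoters of the bottom row have no read at P10.

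In 11 members, or 6.11%, both P10 libraries stood above every library of the other ages, beside 4.76% of protein-coding promoters. After Slc5a2 and Slc6a6 came Slc23a4, of the ascorbate transporter family, with 3.71 and 5.19 RPKM at P4, 16.7 and 15.0035 at P10, and 9.13, 9.89 and 10.1 at P28. Its change from P4 to P10 was 1.64 ± 0.30 (limma adjusted p = 0.00345). The call was lost without either P4 library or P28 replicate 2 (up to 0.0176) under scaling to reads in peaks (change 0.46, 0.245) and under quantile normalization (0.26, 0.530). Slc11a1, a metal transporter of macrophage phagosomes, had 1.65 and 1.30, then 3.94 and 4.01, then 2.29, 1.70 and 2.01 RPKM, with 3 and 7 reads at P10. Slc39a4, an intestinal zinc importer, had 0.70 and 0.92, then 2.80 and 2.44, then 1.22, 1.62 and 1.07 RPKM. In 13 members, or 7.22%, both P10 libraries stood below all others, beside 6.53% of protein-coding promoters, and 7 of these had no P10 read. No read in either P10 library was found in 5% of the members and 5.51% of protein-coding promoters. After Slc24a2 these were led by Slc15a4, a lysosomal transporter of histidine and peptides, at 3.43 and 1.503 RPKM at P4, 0 at P10, and 1.98, 3.17 and 2.39 at P28. Slc24a3, a further potassium-dependent exchanger, had 5.08 and 3.33, then 0 and 2.20, then 5.13, 4.98 and 3.86 RPKM, and its P10 value is 1 read. Slc35f3 and the peptide transporter Slc15a1 had no P10 read either.

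Between P10 and P28 no member was called in either direction by limma, where 0.00185% of all peaks were called higher and 0% lower, and 0% of protein-coding promoters either way. The median change was 0.72 against 0.74 for all protein-coding promoters, 69 members (38.3%) had an unadjusted p under 0.05, beside 39.6% of protein-coding promoters, and in 99 (55%) every P28 library was above both P10 libraries, beside 54.9%. The member nearest the threshold was Slc24a2, with a change of 2.17 and an adjusted p of 0.0150. It had no read in either P10 library, so the size of that change depends on the 1 RPKM added before taking logs and is no bound on the difference. Slc20a1 (1.39, 0.0174) and Slc12a5 (1.06, 0.0455) had P28 libraries above P10, and Slc5a2 had them below (-1.001, 0.0414). limma's voom on the recovered reads called 6 higher and 1 lower. Without P10 replicate 2 there were 38 called higher and 1 lower, and without P10 replicate 1 there were 2 higher.

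Beyond their promoters, 134 members had other peaks assigned to them, 831 in all. From P4 to P28, 166 of these were called higher and 15 lower, with a median change of 0.76, against 0.54 for all 91109 such peaks, of which 16.6% were called higher and 4.84% lower. The share called was uneven between genes. Slc44a1 had 22 of 33 such peaks called higher, Slc1a2 14 of 21, Slc12a8 13 of 30, Slc38a1 10 of 20, Slc6a6 6 of 12 and Slc1a7 6 of 11. None was called higher of 40 at Slc39a11, 38 at Slc24a3, 18 at Slc6a11 or 13 at Slc8a1. These genes were picked after their counts were seen, and peaks of 1 gene share its cells and libraries.

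Genes that work with the solute carriers were read from a list of 35 genes of ion pumps, a chaperone, outer membrane channels, the pyruvate carrier and kinases that regulate cotransporters, of which 26 had a promoter peak. From P4 to P28, 13 of the 26 (50%) were called higher and none lower, beside 32.9% and 0.281% of all protein-coding promoters, with a median change of 1.73, and 6 (23.1%) were called higher at P10, beside 11.3%. Bsg, the chaperone that carries lactate transporters to the membrane, had 2.97 and 1.56 RPKM at P4, 7.09 and 13.4 at P10 and 23.4, 23.8 and 32.3 at P28, a change of 3.09 (limma adjusted p = 0.000256). Vdac2, an outer mitochondrial membrane channel, changed by 2.10 (limma adjusted p = 0.000231). Atp1b1, the beta subunit of the sodium pump that builds the gradient most carriers use, had 6.11 and 4.32 RPKM at P4 and a change of -0.52 that did not pass (0.250).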

How the data were processed

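H3K18La was measured by CUT&Tag in 7 libraries, grouped by the sample labels. The authors mapped reads to GRCm38 with nf-core/cutandrun, called peaks with MACS (-log10 q over 6 in at least 2 replicates), merged the ages, annotated peaks with ChIPseeker (1.34.1 per the submitters' processing notes) on Ensembl 102, and deposited RPKM from csaw, normalised on 10000-base windows. Their differential binding table holds fold changes, p-values and FDR values and was not used.

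Whole reads were recovered from 100.0% of the RPKM values (within 0.01 read). RPKM depends on that normalisation, and low values on depth. The sources name no molecular identifiers, so read floors cover counting error only. Age was fitted to log2(RPKM + 1) with limma 3.58.1 (R 4.3.3, variance trend), all 7 libraries and all 108253 peaks, without covariates. Calls needed an adjusted p (Benjamini-Hochberg) under 0.01. Ties in distance to the TSS went to the lower start. The code was tested on simulated data. The labels do not say that replicates came from separate animals, so p-values measure the spread between libraries. The peak files rest on 2 or 3 replicates an age, and the enzyme is named as MNase in the labels and as Tn5 in the methods.

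The members, role groups by family, partner list, motifs and tests were chosen with earlier results of these data known. Named members were a list by role, the 5 largest changes each way and those next to the threshold in each comparison, the 5 highest at P4 and at P28, and those with P10 apart, besides others named as such. Of 47 listed names, 9 had no promoter peak: Slc25a1, Slc25a22, Slc1a1, Slc7a11, Slc6a5, Slc18a2, Slc37a4, Slc40a1 and Slc27a1. Alternatives were 3 other scalings, pseudocounts of 0.1 and 5, a filter on low values, voom, library weights, leaving out each library, a replicate block, all promoter peaks of a gene, an adjusted p of 0.05 and, added after seeing the data, the other tie rule. Some members and partner genes are not reported here.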

Additional observations from a re-analysis of the deposited data

How the results depend on the processing

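For P28 against P4, 60 members were called higher and 1 lower, with a median change of 1.32. Scaling to reads in peaks gave 15, 7 and 0.30, median centring 37, 3 and 0.80, and quantile normalization 33, 8 and 0.75. A pseudocount of 0.1 gave 39 higher (median 1.92), and one of 5 a median of 0.61. The filter on low values left 0 lower. voom gave 95 higher and 3 lower (median 1.71), library weights 100 and 2, an adjusted p of 0.05 gave 99 and 3, and the members above the floor at every age 38 and 0. Without 1 library the counts were 19 to 99 higher and 1 to 2 lower. The difference in the median level per library, 1.21, was 1.61 with a pseudocount of 0.1.

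For P10 against P4 (23 higher, 4 lower, median 0.55), scaling to reads in peaks gave 4 and 11 and turned the median to -0.25. Median centring gave a median of 0.30, quantile normalization 4 higher and a median of 0.33, and the pseudocounts of 0.1 and 5 medians of 0.83 and 0.26. The filter left 2 lower (median 0.83), voom 2 lower (median 1.12), library weights 12 higher and 0 lower, an adjusted p of 0.05 gave 46 and 8, and the members above the floor 0 lower (median 0.86). Without 1 library there were 6 to 31 higher and 1 to 8 lower, with medians of 0.43 to 0.76.

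For P28 against P10 (0 and 0, median 0.72), the median was 0.53 under scaling to reads in peaks, 0.44 under median centring (1 lower) and under quantile normalization, 0.97 with a pseudocount of 0.1, 0.35 with one of 5 (4 higher) and 0.46 for the members above the floor. voom called 6 higher and 1 lower, and an adjusted p of 0.05 gave 24 and 2. Without 1 library there were 0 to 38 higher and 0 to 1 lower, with medians of 0.55 to 0.85.

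Of the members named for P28 against P4, 8 that did not pass turned negative under scaling to reads in peaks: Slc1a4 (-0.31), Slc38a3 (-0.69), Slc4a10 (-0.54), Slc4a3 (-0.082), Slc6a11 (-0.10), Slc39a10 (-0.50), Slc33a1 (-0.69) and Slc35f5 (-0.857). So did 6 under quantile normalization, namely Slc1a4 (-0.27), Slc38a3 (-0.71), Slc4a10 (-0.223), Slc39a10 (-0.88), Slc33a1 (-0.27) and Slc35f5 (-1.21, where its limma adjusted p was 0.0042), and Slc33a1 under median centring (-0.034). Of 59 called results for named members, 12 were called in every alternative (17 or 18 each) and 0 changed direction. Of the named members that did not pass from P4 to P28, Slc7a5, Slc7a14, Slc25a3, Slc2a3, Slc16a8, Slc39a10 and Slc41a3 were called higher under library weights. Slc1a5 was called higher under voom. The cause of these differences was not tested.

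With a replicate block 32 members were called higher from P4 to P28, and 2 lower from P4 to P10. The labels give replicate numbers and state no pairing. Deviations of same-numbered libraries correlated at most at 0.047. This check cannot decide on a pairing, since the 2 libraries of P4, and those of P10, deviate as mirror images and hold few reads. The mean over all promoter peaks of a gene, and the other rule for ties, chosen after seeing the data, left every count within 1.5 times, but moved Slc38a3, Slc4a2 and, for the tie rule, Slc3a2 across the threshold. Depth limits P4 and P10 most, where 66 and 68 members had at most 3 reads in each library.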
